A study of Mus musculus with 151 samples.

Results

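The genes that write, copy, remove or protect DNA methylation in mammals were followed in female mice conceived naturally (Natural) or by in vitro fertilization (IVF): Dnmt1, Uhrf1, Dnmt3a, Dnmt3b, Dnmt3l, Tet1, Tet2, Tet3, Dppa3 and Zfp57. The 10 members were chosen by name from the 35976 gene names counted in all 7 tables, and each was present in every table. All mice had CF-1 mothers and B6/SJL fathers. Natural offspring came from mating in an unstimulated cycle and developed without embryo transfer. IVF offspring came from eggs of superovulated CF-1 females, were cultured to the blastocyst stage in KSOM with amino acids at reduced oxygen and were transferred without surgery into pseudopregnant CF-1 recipients, so ovarian stimulation, fertilization in vitro, culture and transfer were changed together and cannot be told apart. The adults of both groups were delivered by cesarean section and raised by CF-1 foster dams. No mouse carried a transgene or an engineered allele.

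RNA was sequenced from primordial germ cells (PGCs) at E13.5 (4 Natural and 5 IVF pools of cells), from fetal ovaries at E18.5 (4 Natural and 6 IVF), from adult ovaries of 12 weeks (4 and 5) and 39 weeks (5 and 5), from single oocytes at 12 weeks (36 and 40) and 39 weeks (9 and 10), and from pooled cumulus cells at 12 weeks (5 and 5). Oocytes and cumulus cells were taken from offspring given eCG and hCG, whereas the ovaries were whole fetal gonads or part of an adult ovary. One 39-week Natural ovary, replicate 5, was labelled 40 weeks. The methods gave the day of collection of IVF fetuses as a day later than that of Natural fetuses in one place and as the same day in another, and under the first reading conception and fetal age cannot be told apart at E18.5. The labels did not tie PGC pools to animals, and 6 of the 10 cumulus pools carried the name of a set of oocytes while the other 4 carried none, so p-values there measured the spread between these libraries, which may be partly technical.

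DNMT1 copies methylation onto the new strand after replication, and UHRF1 recruits it to hemimethylated sites. DNMT3A and DNMT3B place new methylation, and DNMT3L, which has no catalytic activity of its own, stimulates them and is needed for maternal imprints in growing oocytes. TET1, TET2 and TET3 oxidize methylcytosine as a step toward its removal, TET3 being the form stored in the egg and active in the zygote. DPPA3, also called STELLA or PGC7, protects the maternal genome from TET3 in the zygote and keeps UHRF1 out of the oocyte nucleus, and ZFP57 is a zinc finger protein that holds methylation at imprinted regions. Germ cells of the female erase most methylation by midgestation and regain it after birth in the growing oocyte, so these genes are known to be used at different times in the germ line.

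The starts of the members differed in their content of CG dinucleotides, the substrate of these enzymes. RefSeq promoters (250 bases before to 50 after a start, assembly GRCm38.p6) were found for 9 of the 10 members, with 18 starts. Of these, 5 are shown 5′ to 3′ with each CG in capitals, taking for each gene the start with the most CG: the 3 genes that rose in IVF fetal ovaries, Dnmt3a (chr12:3806910-3807209, plus strand), Tet2 (chr3:133544341-133544640, minus strand) and Tet3 (chr6:83441629-83441928, minus strand), and 2 germline members, Dnmt3l (chr10:78042037-78042336, plus strand) and Zfp57 (chr17:37002275-37002574, plus strand).
Dnmt3a: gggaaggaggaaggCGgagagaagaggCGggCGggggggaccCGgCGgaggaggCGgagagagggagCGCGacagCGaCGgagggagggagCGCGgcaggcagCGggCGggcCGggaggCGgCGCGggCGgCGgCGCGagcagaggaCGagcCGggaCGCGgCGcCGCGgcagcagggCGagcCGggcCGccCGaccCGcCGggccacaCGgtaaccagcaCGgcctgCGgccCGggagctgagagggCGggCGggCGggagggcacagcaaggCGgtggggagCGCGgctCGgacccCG
Tet2: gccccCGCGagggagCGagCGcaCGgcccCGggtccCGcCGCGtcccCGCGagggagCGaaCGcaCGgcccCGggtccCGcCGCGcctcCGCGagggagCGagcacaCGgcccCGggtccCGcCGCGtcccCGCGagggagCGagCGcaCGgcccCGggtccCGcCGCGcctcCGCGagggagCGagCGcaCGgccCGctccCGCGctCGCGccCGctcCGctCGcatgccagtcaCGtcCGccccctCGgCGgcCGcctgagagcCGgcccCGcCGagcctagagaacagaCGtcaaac
Tet3: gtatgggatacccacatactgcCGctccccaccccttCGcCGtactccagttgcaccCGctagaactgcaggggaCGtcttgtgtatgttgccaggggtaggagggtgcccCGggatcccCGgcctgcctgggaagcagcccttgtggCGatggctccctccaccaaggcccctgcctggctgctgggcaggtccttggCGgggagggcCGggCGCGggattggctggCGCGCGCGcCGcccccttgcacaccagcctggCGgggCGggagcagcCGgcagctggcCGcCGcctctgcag
Dnmt3l: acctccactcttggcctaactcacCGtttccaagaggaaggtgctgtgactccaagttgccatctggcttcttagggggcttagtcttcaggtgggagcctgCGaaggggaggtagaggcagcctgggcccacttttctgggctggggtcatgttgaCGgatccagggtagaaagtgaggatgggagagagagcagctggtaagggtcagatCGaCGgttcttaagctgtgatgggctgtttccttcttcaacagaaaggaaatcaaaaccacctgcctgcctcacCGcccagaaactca
Zfp57: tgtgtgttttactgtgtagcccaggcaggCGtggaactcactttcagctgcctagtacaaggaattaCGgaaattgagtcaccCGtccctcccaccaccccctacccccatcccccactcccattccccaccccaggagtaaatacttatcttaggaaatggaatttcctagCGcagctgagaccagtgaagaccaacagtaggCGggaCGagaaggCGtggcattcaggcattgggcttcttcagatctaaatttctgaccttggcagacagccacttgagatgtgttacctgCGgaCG
Tet2 held 57 CG in 300 bases, more than 99.8% of the 32851 promoters in the table, and Dnmt3a held 47, more than 98.6%. Tet3 held 22, more than 76.9%. The median promoter held 7 CG, and the Dnmt3l and Zfp57 starts shown, with 6 and 9, lay near it. The GC box GGGCGG, read on both strands, was found 7 times at this Dnmt3a start, 2 times at Tet3, 1 time each at Tet2 and Dnmt3l and not at Zfp57, against 35.7% of all promoters with at least 1. CCAAT on either strand occurred 1 time at the Tet3 start and 1 time at the Zfp57 start shown, and in 37.4% of all promoters. TAATTG, the core that the oocyte homeobox protein NOBOX is known to bind, was in none of the 18 starts and in 8% of all promoters. These matches describe letters only, and the counts per gene used below do not tell which start was used.

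Dnmt1 had 3 starts, of 2, 12 and 33 CG (chr9:20959839-20960138, chr9:20952930-20953229 and chr9:20952574-20952873, all on the minus strand). Uhrf1 had a start of 33 CG (chr17:56304063-56304362) and one of 12, Dnmt3b 1 start of 30, and Tet1 1 start of 17. In the GENCODE annotation of the same assembly, the exons of Dnmt3a share 133 bases with its antisense transcript Dnmt3aos, those of Dnmt3l share 67 bases with Aire on the other strand, and those of Tet2 share 43 bases with Gm42567, so a small part of those counts is uncertain where strand was not used.

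Library totals were 4364495 to 8675189 counts for PGC pools, 6995713 to 14830788 for E18.5 ovaries, 2839022 to 43363799 for 12-week ovaries, 18079970 to 38751638 for 39-week ovaries and 2532824 to 6345249 for cumulus pools. Single 12-week oocytes had 839781 to 10879166 counts and were summed into 5 Natural and 5 IVF sets by the first 2 fields of the library name. The sets carried only 2 first fields in each group, so they may not be independent. Single 39-week oocytes had 2820748 to 31126357 counts. Levels are counts-per-million (CPM), scaled by TMM within each table, and are comparable within a table. Of the 10 germ cell markers, 9 or 10 reached 1 CPM in each PGC pool. PGCs had Ddx4 at 172 to 1280 CPM, and the 10 granulosa and cumulus markers summed to 0 to 13.2 CPM in the PGC pools. The germ cell markers Stra8, Rec8 and Sycp3 spread widely in Natural PGC pools, at 0 to 627, 11.1 to 328 and 8.03 to 105 CPM. In IVF PGC pools they were at 56.5 to 189, 70.9 to 197 and 14.1 to 32.6 CPM. The 12 oocyte markers summed to 16510 to 33630 CPM in 12-week oocyte sets against at most 38.7 CPM in cumulus pools. Granulosa and cumulus markers summed to 1385 to 2611 CPM in the cumulus pools, which also held immune markers at 71.6 to 4395 CPM. In the bulk ovaries, fewer cells of a type and less RNA per cell cannot be told apart.

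Among the 2 maintenance genes, Dnmt1 was higher in PGCs and oocytes than in cumulus cells, and Uhrf1 was higher in oocytes than in PGCs. In Natural samples, Dnmt1 stood at 434 ± 132 CPM in PGCs (SD, n = 4), 513 ± 99.1 in 12-week oocyte sets (n = 5) and 23.6 ± 1.82 in cumulus cells (n = 5). Its level in Natural ovaries was 251 ± 17.8 CPM at E18.5 (n = 4), 155 ± 7.48 by 12 weeks (n = 4), and 168 ± 20.1 by 39 weeks (n = 5). Uhrf1 stood at 57.1 ± 55.7 CPM in PGCs, where the 4 pools ran from 17.0 to 135, at 1020.1 ± 129.8 in oocyte sets and at 3.87 ± 1.11 in cumulus cells. In ovaries Uhrf1 went from 191 ± 17.1 CPM at E18.5 to 52.2 ± 3.90 at 12 weeks and 34.2 ± 11.9 at 39 weeks. The oocyte values of Uhrf1 lay above every PGC value, while those of Dnmt1 overlapped the PGC values. PGCs and oocytes were scaled in separate tables, so such overlap, here and below, depends on the scaling.

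**Figure D1:**
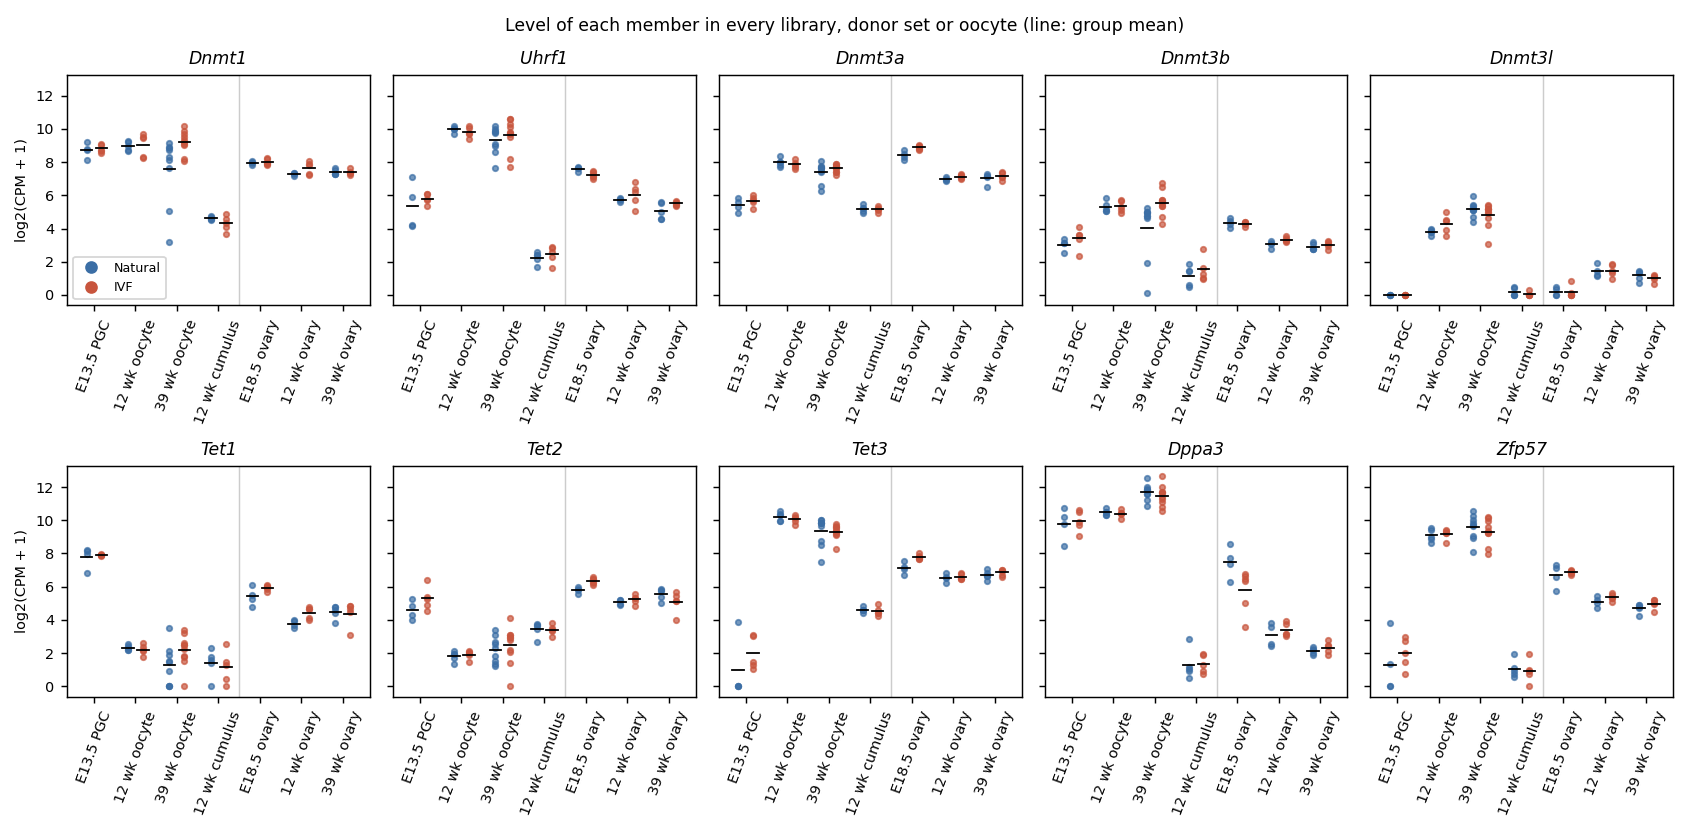
Level of each member as log2(CPM + 1), 1 panel per gene; each point is 1 PGC pool, oocyte set, 39-week oocyte, cumulus pool or ovary, blue Natural and red IVF, with a line at the group mean. The gray line parts low-input libraries from ovaries, which were prepared with different kits; Tet1 and Tet2 stand highest on the left in PGCs, while Tet3, Uhrf1 and Zfp57 stand highest there in oocytes.

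The 3 genes of new methylation were all higher in oocytes than in PGCs, and Dnmt3l was the only one of them without a single count in PGCs. Natural Dnmt3a went from 42.9 ± 11.9 CPM in PGCs to 257 ± 45.2 in 12-week oocyte sets, against 35.6 ± 5.10 in cumulus cells. Natural Dnmt3b was at 7.38 ± 2.01 CPM in PGCs, 39.6 ± 9.82 in oocyte sets and 1.40 ± 0.930 in cumulus cells. Dnmt3l had 0 counts in all 9 PGC pools, 13.0 ± 1.55 CPM in Natural oocyte sets and 4 counts in all over the 5 Natural cumulus pools. Oocytes were therefore the one cell sampled in which all 3 were clearly present. In Natural ovaries Dnmt3a fell from 344 ± 63.2 CPM at E18.5 to 125 ± 8.53 at 12 weeks and Dnmt3b from 19.6 ± 3.47 to 7.29 ± 1.120. Dnmt3l went the other way, from 8 counts over 4 ovaries at E18.5 to 1.75 ± 0.694 CPM at 12 weeks, when the ovary holds growing oocytes, and stood at 1.29 ± 0.453 CPM at 39 weeks.

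The 3 TET genes divided by cell. Natural Tet1 stood at 234 ± 85.4 CPM in PGCs, 4.01 ± 0.605 in oocyte sets and 1.99 ± 1.41 in cumulus cells. Tet2 stood at 24.6 ± 10.0 CPM in PGCs, 2.58 ± 0.716 in oocyte sets and 10.2 ± 2.84 in cumulus cells. Tet3 had 0 counts in 3 of 4 Natural PGC pools and 13.6 CPM in the other, 1209 ± 218 CPM in oocyte sets and 23.6 ± 2.37 in cumulus cells. Tet1 was thus the highest of the 3 in PGCs and Tet3 in oocytes. The values of the 3 genes did not overlap between PGCs and oocytes. In Natural ovaries Tet3 stood at 142 ± 34.3 CPM at E18.5, at 91.9 ± 15.1 by 12 weeks, and at 105 ± 19.2 by 39 weeks, Tet2 at 54.6 ± 6.90, 32.4 ± 3.86 and 46.7 ± 10.8, and Tet1 at 43.9 ± 17.6, 12.9 ± 2.18 and 21.8 ± 5.70.

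The guards also differed. Dppa3 was high in PGCs, at 1022 ± 561 CPM, and in oocyte sets, at 1447 ± 180.0, with overlapping values, and had 44 counts over the 5 Natural cumulus pools. Zfp57 was at 3.62 ± 6.29 CPM in PGCs, with 2 of 4 Natural pools at 0, and at 562 ± 143 CPM in oocyte sets. The cumulus pools held 30 counts of Zfp57. In Natural ovaries Dppa3 fell from 210.1 ± 128.0 CPM at E18.5 to 8.31 ± 4.34 at 12 weeks and 3.44 ± 0.593 at 39 weeks, and Zfp57 from 110.3 ± 46.6 to 33.4 ± 6.98 and 25.5 ± 4.72.

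Per kilobase of exon, which allows genes to be compared, the order in Natural 12-week oocyte sets was Dppa3, Uhrf1, Zfp57, Tet3, Dnmt1, Dnmt3a, Dnmt3b, Dnmt3l, Tet1 and Tet2. Dppa3 stood at 1623 ± 202 CPM per kilobase, Uhrf1 at 239.5 ± 30.5 and Zfp57 at 148 ± 37.8. Tet3, at 72.4 ± 13.0 CPM per kilobase, and Dnmt1, at 69.5 ± 13.4, did not differ beyond their spread. Dnmt3a followed at 15.5 ± 2.71, Dnmt3b at 7.76 ± 1.92, Dnmt3l at 4.36 ± 0.518, Tet1 at 0.260 ± 0.0391 and Tet2 at 0.153 ± 0.0424. In Natural PGCs Dppa3 again led, at 1146 ± 629 CPM per kilobase, ahead of Dnmt1 at 58.8 ± 18.0 and Tet1 at 15.2 ± 5.53. Uhrf1, at 13.4 ± 13.1, could not be set apart from Tet1 there. Dppa3 thus led in both germ cell stages, while Tet1 went from rank 3 in PGCs to rank 9 in oocytes.

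These courses were tested in 1 edgeR quasi-likelihood fit over the low-input libraries, with p-values adjusted over all 15792 genes tested. Between Natural oocyte sets and Natural PGCs, 10 of 10 members passed, 8 higher and 2 lower in oocytes, where 76.8% of all genes passed and 37.4% passed as higher. Tet3 was higher by 9.84 on the log2 scale (SE 0.984), Zfp57 by 8.68 (SE 0.920), Uhrf1 by 5.75 (SE 0.509), Dnmt3a by 4.20 (SE 0.257) and Dnmt3b by 4.05 (SE 0.451). The sizes for Tet3, Zfp57 and Uhrf1 rested on Natural PGC pool 2, which held the most of each. Without it Zfp57 was higher by 11.95 and Uhrf1 by 6.72, and Tet3, then at 0 in every Natural PGC pool, has no fold, while the calls of these 3 genes stood. Dnmt3l was at least 98.0-fold higher in plain CPM (12.4 in Natural oocyte sets), taking 3 counts over the 4 Natural PGC pools (0.127 CPM) as the limit that a count of 0 allows. Tet1 was lower, with a log2 difference of -4.22 (SE 0.483), as was Tet2, with -1.63 (SE 0.356). These 8 genes kept their direction and their call when library totals replaced TMM, but the sizes depended on the scaling. In plain CPM the log2 ratios were 8.07 for Tet3, 6.94 for Zfp57, 3.97 for Uhrf1, 2.49 for Dnmt3a and 2.34 for Dnmt3b. They were -5.87 for Tet1 and -3.35 for Tet2. Dnmt1 (1.89, SE 0.300) and Dppa3 (2.16, SE 0.448) had log2 ratios of 0.24 and 0.57 in plain CPM and lost their call with library totals. Scaling by DESeq2 size factors moved the median log2 difference of all genes from -0.17 to 0.04, and the 10 calls stood.

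Natural 12-week oocyte sets and Natural cumulus pools, 2 of which carried the name of a Natural oocyte set, differed in 10 of 10 members, 9 of them higher in oocytes and Tet2 lower, against 79.5% of all genes called and 41.9% called as higher. The log2 difference was 10.33 for Dppa3 (SE 0.608), 9.54 for Zfp57 (SE 0.891), 8.76 for Uhrf1 (SE 0.536) and 6.4 for Tet3 (SE 0.762). It was 5.50 for Dnmt3b (SE 0.466), 5.16 for Dnmt1 (SE 0.321), 3.58 for Dnmt3a (SE 0.228) and 1.69 for Tet1 (SE 0.495). Dnmt3l rested on 4 cumulus counts and is given without a fold. Tet2 was the single member higher in the somatic cells, with a log2 difference of -1.27 (SE 0.345). The Tet1 call was lost with library totals in place of TMM, and the sizes depended on the scaling. In plain CPM the log2 ratio was 9.56 for Dppa3, 2.82 for Dnmt3a, 0.88 for Tet1 and -2.04 for Tet2. Oocyte markers in the cumulus pools followed the naming of the libraries. Over both conceptions, oocyte marker sums were 17.5 to 38.7 CPM in the 6 pools named as a set of oocytes and 0.811 to 1.21 CPM in the others. The pools named as a set of oocytes form a library set of their own, so carried-over oocyte RNA and library set cannot be told apart. The part of either in the cumulus values of the members was not tested.

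In Natural ovaries, 10 of 10 members differed between 12 weeks and E18.5 in an edgeR quasi-likelihood fit over all 6 ovary groups, 1 higher (Dnmt3l) and 9 lower, where 49.7% of all 19724 genes were called and 24.3% were called as lower. Dppa3 fell by 4.58 on the log2 scale (SE 0.547), or 23.9-fold. Uhrf1 fell by 1.78 (SE 0.251), Tet1 by 1.70 (SE 0.315), Zfp57 by 1.63 (SE 0.224), Dnmt3a by 1.39 (SE 0.153) and Dnmt3b by 1.34 (SE 0.171). Tet2 fell by 0.67 (SE 0.242), Dnmt1 by 0.61 (SE 0.150) and Tet3 by 0.55 (SE 0.168). The decline was therefore steepest for Dppa3 and shallowest for Tet3, Dnmt1 and Tet2. Dnmt3l was higher by 3.46 (SE 0.842), from 8 counts at E18.5. Leaving out any 1 library left 8 to 10 members called. Tet2 lost its call without Natural E18.5 replicate 1 or 3 or Natural 12-week replicate 1 or 2, and Tet3 without Natural E18.5 replicate 1. Cell division markers summed to 1122 to 1746 CPM in Natural E18.5 ovaries and 429 to 616 CPM at 12 weeks, and oocyte markers to 265 to 993 and 163 to 394 CPM. Larger shifts, without overlap, were seen for stroma markers, at 14880 to 24260 and then 4484 to 6642 CPM, steroidogenic markers, at 19.05 to 48.4 and then 10480 to 19230 CPM, and epithelial markers, at 325 to 696 and then 3450 to 7713 CPM. The part of these lists in the members' changes was not tested.

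From 12 to 39 weeks, 2 members rose in Natural ovaries, where 21.6% of all genes were called and 10% were called as higher. Tet1 was at 14.2, 10.4, 15.1 and 11.7 CPM in the 12-week ovaries and at 12.8, 20.1, 22.8, 26.3 and 26.8 CPM in the 39-week ovaries, higher by 0.89 on the log2 scale (SE 0.296, edgeR adjusted p = 0.033). Tet2 was at 30.0, 28.2, 35.3 and 36.0 CPM and then at 39.9, 54.3, 31.1, 56.2 and 52.0 CPM, higher by 0.66 (SE 0.230, adjusted p = 0.041). In each gene 1 of the 5 older ovaries overlapped the younger ones. Both calls were lost with library totals in place of TMM, when the Natural 12-week ovary 1 or 2 was left out and when the Natural 39-week ovary 4 or 5 was left out. Tet1 alone stayed called without Natural 12-week 3 or 39-week 2, and Tet2 alone without Natural 12-week 4 or 39-week 3. Epithelial markers, led by the oviduct gene Ovgp1, summed to 3450 to 7713 CPM in the 12-week Natural ovaries and 53.8 to 233 CPM in the 39-week ones, and endothelial markers to 199 to 246 and 285 to 401 CPM, both without overlap; their part in the Tet1 and Tet2 values was not tested. Uhrf1 had a log2 difference of -0.48 (SE 0.231) and Dppa3 one of -1.13 (SE 0.475), with adjusted p = 0.141 and 0.089, and Dppa3 was called in the fit without IVF E18.5 ovary 2.

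The conception groups were compared within each table by an edgeR quasi-likelihood fit, with p-values adjusted over all genes of the table. The E18.5 ovary was the one stage at which any member passed. There, 3 of the 9 members tested rose in IVF ovaries and none fell, against 5.43% of all 16415 genes called and 2.67% called as higher. They were Dnmt3a, the main enzyme of new methylation in the germ line, and the oxidases Tet2 and Tet3.

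Dnmt3a was at 426, 311, 358 and 281 CPM in the 4 Natural E18.5 ovaries and at 453, 508, 509, 515, 428 and 449.7 CPM in the 6 IVF ovaries. The groups did not overlap, although the highest Natural and the lowest IVF ovary were 426 and 428. The means were 344 and 477 CPM, a log2 difference of 0.47 (SE 0.121, 95% interval 0.21 to 0.73, adjusted p = 0.040), or 1.39-fold. Tet2 was at 57.2, 53.7, 62.0 and 45.6 CPM in Natural ovaries and at 75.9, 95.8, 85.5, 85.6, 75.0 and 66.4 CPM in IVF ovaries. Every IVF value exceeded every Natural value, with a log2 difference of 0.56 (SE 0.125, 95% interval 0.29 to 0.83, adjusted p = 0.025), or 1.48-fold. Tet3 was at 186, 133, 146 and 103 CPM in Natural ovaries and at 225, 223, 255, 198, 205 and 213 CPM in IVF ovaries. It was likewise separated, with a log2 difference of 0.63 (SE 0.143, 95% interval 0.32 to 0.94, adjusted p = 0.026), or 1.55-fold. Complete separation with IVF above Natural was seen in 4.28% of all genes tested.

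**Figure D2:**
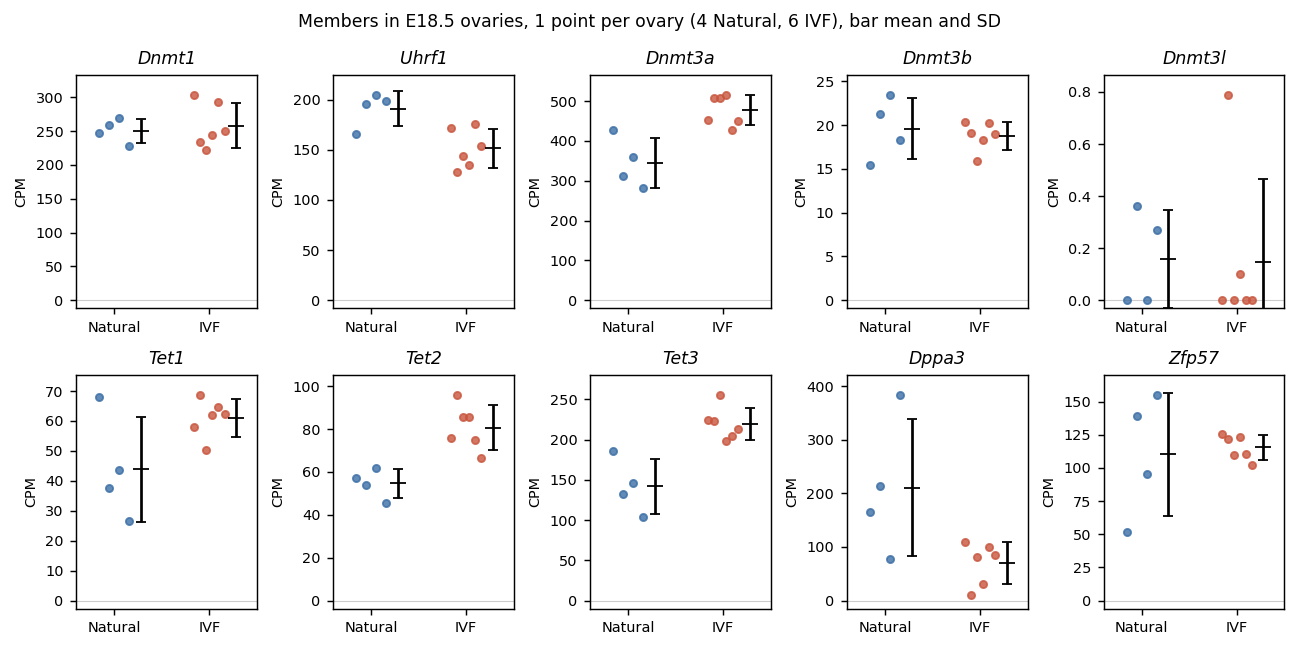
CPM of the 10 members in E18.5 ovaries, 1 point per ovary (4 Natural in blue, 6 IVF in red), with the group mean and SD as a bar beside the points. Dnmt3a, Tet2 and Tet3 show all 6 IVF ovaries above all 4 Natural ovaries; Dppa3 is lower in IVF on average but the groups overlap.

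These 3 calls depended on single ovaries. When each of the 10 ovaries was left out in turn, Tet2 was called in 6 of 10 fits, Tet3 in 4 and Dnmt3a in 2. No member was called without Natural 2, without Natural 4 or without IVF 2, only Tet2 without Natural 3, IVF 1 or IVF 6, and only Tet3 without IVF 4. Without Natural 1, 5 members were called: Dnmt3a, Tet1, Tet2, Tet3 and Uhrf1. With genes of low counts kept in the test, Tet2, Tet3 and Dppa3 (adjusted p = 0.047) were called and Dnmt3a was not (adjusted p = 0.057). By DESeq2, 4 members were called, the same 3 and Uhrf1 (adjusted p = 0.041).

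The other E18.5 members did not pass. Tet1, the TET gene of PGCs, was at 68.0, 37.5, 43.6 and 26.4 CPM in Natural ovaries and 58.0, 68.6, 50.3, 62.1, 64.8 and 62.2 CPM in IVF ovaries, a log2 difference of 0.48 (SE 0.206, adjusted p = 0.177). Of the 6 IVF values, 5 lay between the highest Natural value and the next, and the other lay just above both. Uhrf1 was at 166, 196, 205 and 198 CPM in Natural and 172, 128, 144, 135, 176 and 154 CPM in IVF ovaries, a log2 difference of -0.34 (SE 0.112, adjusted p = 0.092). All 6 IVF values were below the Natural median. Dnmt1, its partner, was at 247, 259, 269 and 228 CPM and at 303, 233, 222, 244, 294 and 251 CPM, with a log2 difference of 0.04 (SE 0.110, 95% interval -0.20 to 0.28). Dnmt3b differed by -0.06 (SE 0.146) and Zfp57 by 0.07 (SE 0.226). The Natural ovaries spread widely for Zfp57, at 51.7, 139.6, 95.1 and 155 CPM, whereas the IVF ovaries were within 102 to 126 CPM. Dnmt3l, with 8 Natural and 9 IVF counts, was below the filter.

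Dppa3 had the widest range of the members tested. It stood at 166, 214, 78.3 and 383 CPM in Natural E18.5 ovaries and at 109, 10.8, 81.2, 31.5, 100.5 and 85.7 CPM in IVF ovaries. All 6 IVF values were below the Natural median, but Natural 3 lay inside the IVF range, and the log2 difference of -1.59 (SE 0.512, 95% interval -2.69 to -0.49) had an adjusted p of 0.084. The 12 oocyte markers moved with it: their sums were 479, 549, 265 and 993 CPM in Natural ovaries and 305, 47.6, 266.5, 86.2, 297 and 286 CPM in IVF ovaries, and the lowest 2 ovaries for Dppa3, IVF 2 and IVF 4, were also the lowest 2 for these markers. Divided by that sum, Dppa3 was at 0.295 to 0.389 in Natural ovaries and 0.228 to 0.366 in IVF ovaries. The ratio thus overlapped between the groups. Of the 12 oocyte markers, 10 or 11 reached 1 CPM in each Natural ovary and 4 to 11 in the IVF ovaries. Gdf9, the oocyte growth factor, ran from 7.58 to 57.2 CPM in Natural and from 2.07 to 10.4 CPM in IVF ovaries, and Zp3, a zona protein, from 4.69 to 58.3 and from 0 to 8.69 CPM.

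**Figure D3:**
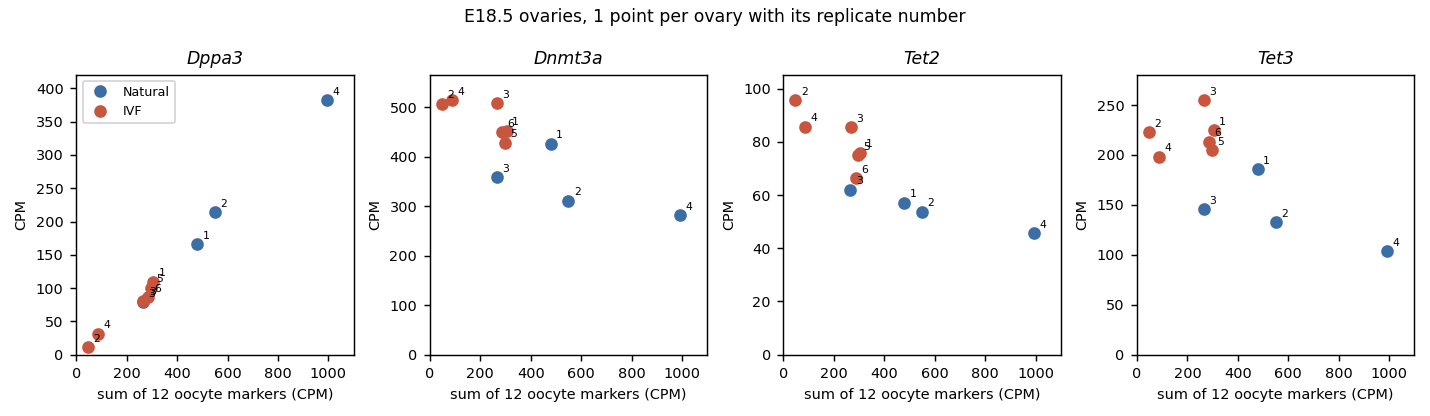
E18.5 ovaries, 1 point per ovary with its replicate number (blue Natural, red IVF): CPM of Dppa3, Dnmt3a, Tet2 and Tet3 against the summed CPM of 12 oocyte markers. Dppa3 is low where the markers are low, with IVF 2 and IVF 4 at the lower left; Dnmt3a and Tet2 are highest in ovaries of low marker sums and lowest in Natural 4, which has the highest sum.

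Other marker lists moved less or differently. The erythroid list of 4 genes did not overlap, at 510 to 1413 CPM in Natural and 1445 to 3924 CPM in IVF ovaries. The germ cell list summed to 166 to 280 CPM in Natural and 172 to 285 CPM in IVF ovaries, the granulosa list to 257 to 469 and 318 to 424 CPM, and the cell division list to 1122 to 1746 and 1215 to 1513 CPM. The germ cell, granulosa and cell division sums overlapped. The germ cell sum joined genes of opposite direction, so its overlap does not show an unchanged germ cell content. For Dazl the Natural median was 67.5 CPM (range 36.6 to 75.6), below the IVF median of 96.7 (71.4 to 123). For Pou5f1 the Natural median was 12.4 CPM (3.79 to 31.5), above the IVF median of 2.90 (0.985 to 5.18). The ranges of both genes overlapped, and neither difference was tested. Without the ovaries IVF 2 and IVF 4, a choice made after the data were seen, the log2 differences were 0.39 for Dnmt3a, 0.44 for Tet2 and 0.63 for Tet3, with adjusted p = 0.228, 0.143 and 0.117, and no member was called. Whether the oocyte content of the ovaries or the blood in them bears on the higher Dnmt3a, Tet2 and Tet3 was not tested.

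In 12-week ovaries none of the 10 members passed, against 0.00567% of 17628 genes called, a single gene. Tet1 and Dnmt1 had an unadjusted p below 0.05, and DESeq2 called none. Tet1 was at 14.2, 10.4, 15.1 and 11.7 CPM in Natural and 16.3, 26.3, 23.9, 24.3 and 14.9 CPM in IVF ovaries, a log2 difference of 0.71 (SE 0.209, adjusted p = 0.202). Of the 5 IVF values, 4 exceeded every Natural value. Dnmt1 was at 146, 159, 163 and 153 CPM and at 156, 225, 265, 238 and 148 CPM, a log2 difference of 0.41 (SE 0.173, adjusted p = 0.323). IVF 2, 3 and 4 were high and the other 2 were within the Natural range. The same 3 ovaries were high for Uhrf1, at 84.1, 109 and 74.1 CPM, where Natural ovaries were at 46.8 to 55.9 and the other IVF ovaries at 51.7 and 32.1 CPM, a log2 difference of 0.42 (SE 0.288). Cell division marker sums ran from 429 to 616 CPM in Natural and from 316 to 1168 CPM in IVF ovaries, and epithelial marker sums, led by the oviduct gene Ovgp1, from 3450 to 7713 and from 92.3 to 3075 CPM without overlap; their part was not tested. The 6 log2 differences of Dnmt3a, Dnmt3b, Tet2, Tet3, Dppa3 and Zfp57 lay between 0.07 and 0.32, and that of Dnmt3l was 0.01 (SE 0.391).

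In 39-week ovaries none of the 10 members passed, none had an unadjusted p below 0.05 and DESeq2 called none, against 0.262% of 17186 genes called. Tet2 differed most, at 39.9, 54.3, 31.1, 56.2 and 52.0 CPM in Natural and 14.7, 41.5, 50.4, 34.2 and 34.3 CPM in IVF ovaries, a log2 difference of -0.41 (SE 0.283, adjusted p = 0.434). Uhrf1 was at 23.2, 47.7, 31.1, 45.8 and 23.2 CPM and at 43.7, 47.6, 40.2, 42.1 and 49.9 CPM, a log2 difference of 0.39 (SE 0.211, adjusted p = 0.332). All 5 IVF values of Uhrf1 lay above the Natural median and inside or just above the Natural range. Cell division markers summed to 243, 490, 369, 558 and 298 CPM in Natural ovaries and to 394 to 634 CPM in IVF ovaries. Their part in the Uhrf1 values was not tested. IVF ovary 1 was the lowest of the 10 for Tet1, at 7.65 CPM where the other IVF ovaries were at 20.8 to 28.1, and for Tet2. The same ovary had an epithelial marker sum of 8856 CPM against 65.9 to 161 CPM in the other IVF ovaries, and what this meant for its TET values was not tested. Dnmt1 differed by -0.01 (SE 0.109, 95% interval -0.25 to 0.23) and Dppa3 by 0.27 (SE 0.248).

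In E13.5 PGCs none of the 9 members tested passed, none had an unadjusted p below 0.05 and DESeq2 called none, against 0% of 12763 genes called, of which 349 had an unadjusted p below 0.05. Dppa3 was at 1697, 356, 1171 and 865 CPM in Natural pools and 1474, 535, 825, 1579 and 946 CPM in IVF pools, a log2 difference of 0.07 (SE 0.451). Dnmt1 was at 599, 276, 443 and 418 CPM and at 533, 374, 430.3, 547 and 412 CPM, a difference of 0.08 (SE 0.263). Replicate 2 was the lowest of its group for both genes in both groups. Tet1 was at 248, 110.0, 282 and 298 CPM in Natural pools and within 228 to 245 CPM in all 5 IVF pools. Tet2 was at 27.8, 37.2, 14.6 and 18.7 CPM and at 37.5, 84.8, 28.8, 22.0 and 41.3 CPM, the widest difference of the members at 0.79 on the log2 scale (SE 0.397, adjusted p = 1.00, unadjusted p = 0.068 in edgeR). The ranges overlapped for Tet2 and for Tet1. Natural pool 2 also held the only Natural counts of Tet3 and the highest Zfp57 and Uhrf1, at 13.6, 13.0 and 135 CPM, and had a cell division marker sum of 3322 CPM, where the other Natural pools were at 6643 to 10160. Its granulosa marker sum, 13.2 CPM, and stroma marker sum, 8.17 CPM, were also the highest of the Natural pools. The other Natural pools had 0 to 4.43 and 0 to 1.25 CPM. IVF pools had granulosa sums of 1.24 to 4.94 and stroma sums of 0.505 to 15.7 CPM. The part of somatic RNA in the members' values was not tested. Without Natural 2 and IVF 2, a choice made after the data were seen, again no member was called. The IVF pools held Tet3 at 1.78, 7.57, 1.44, 1.03 and 7.23 CPM and Zfp57 at 1.78, 6.73, 3.09, 0.687 and 5.58 CPM. All 5 IVF values of Tet3 thus lay above the 3 Natural pools at 0 and below pool 2. The log2 difference was 0.10 for Tet3 (95% interval -2.78 to 2.99) and -0.07 for Zfp57 (-2.61 to 2.48), and Natural pool 2 set both. Without it Zfp57 differed by 2.95 (adjusted p = 0.256), Tet3 was at 0 in every Natural pool (adjusted p = 0.167) and Uhrf1 moved from -0.05 to 0.87 (adjusted p = 0.275).

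In 12-week oocytes none of the 10 members passed in the comparison of 5 Natural with 5 IVF sets, against 0.0277% of 14444 genes called. Dnmt3l had the 1 unadjusted p below 0.05, DESeq2 called no member, and none was called with the counts summed per first field of the name, 2 against 2. It was at 14.3, 12.9, 14.5, 12.9 and 10.6 CPM in Natural and 13.8, 10.6, 21.8, 20.8 and 31.3 CPM in IVF sets, a log2 difference of 0.60 (SE 0.252, adjusted p = 0.745). Of the IVF sets, 3 were above all Natural sets and 2 were not. Dnmt1 was at 622, 406, 508, 604 and 425 CPM in Natural sets and split in IVF sets into 301 and 318 against 733, 840.3 and 705 CPM. No Natural set reached either of these ranges, and the log2 difference of the means was 0.18 (SE 0.274). The stored maternal transcripts differed little, by -0.15 for Tet3 (SE 0.151, 95% interval -0.47 to 0.18), -0.16 for Uhrf1 (SE 0.155, -0.49 to 0.18), -0.10 for Dppa3 (SE 0.131, -0.38 to 0.18) and 0.06 for Zfp57 (SE 0.188, -0.34 to 0.47). Dppa3 ran from 1271 to 1719.5 CPM in Natural and from 1075 to 1614 CPM in IVF sets, and Tet3 from 979.7 to 1490.2 and from 849.6 to 1275 CPM.

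In cumulus cells 5 members had enough counts to test and none passed, none with an unadjusted p below 0.05 and none by DESeq2, against 0.00973% of 10280 genes called. Dnmt3a was at 29.6 to 42.8 CPM in Natural and 29.5 to 40.9 CPM in IVF pools, a log2 difference of -0.02 (SE 0.163). Dnmt1 was at 21.7 to 26.0 and 12.0 to 28.2 CPM, a difference of -0.27 (SE 0.213), Tet3 at 20.7 to 27.3 and 18.2 to 29.9 CPM, and Tet2 at 5.38 to 12.3 and 6.73 to 13.1 CPM. Uhrf1 was lowest of the tested members, at 2.15 to 5.07 and 2.07 to 6.37 CPM. Dnmt3b, Dnmt3l, Tet1, Dppa3 and Zfp57 were below the filter. The name of Natural cumulus replicate 5 is that of a set of IVF oocytes, and its label was followed; leaving it out called no member.

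**Figure D4:**
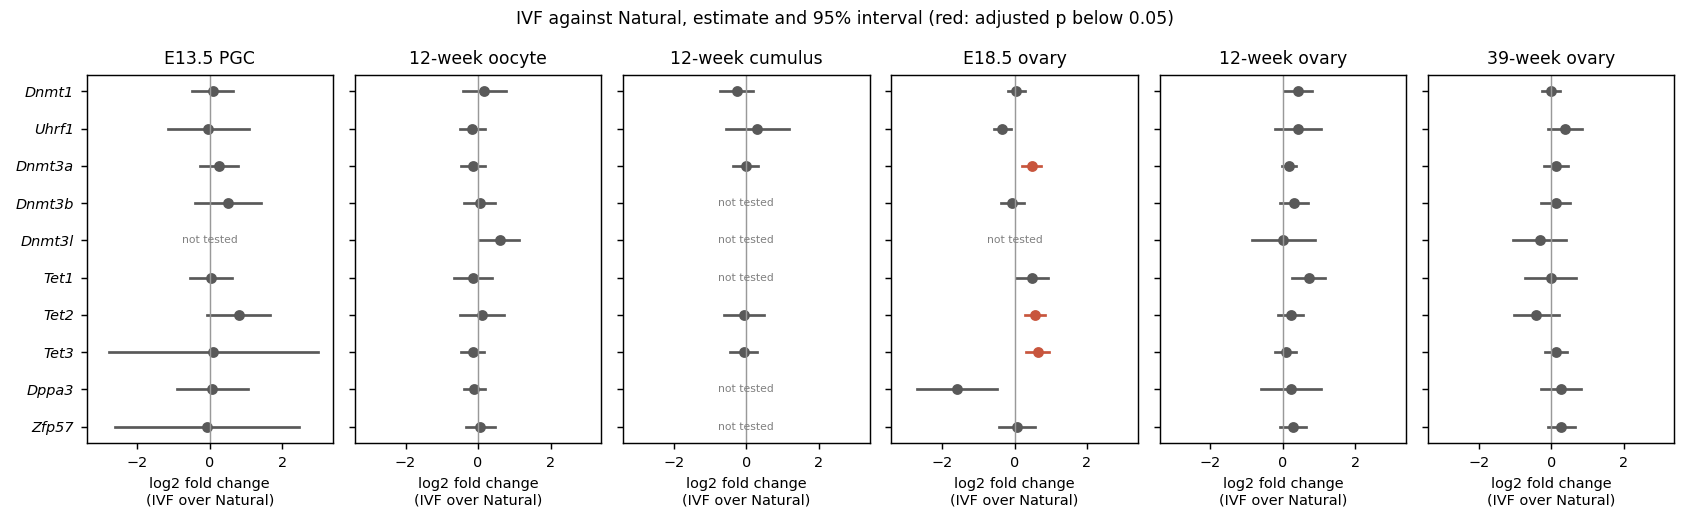
Log2 fold change (IVF over Natural) of each member with its 95% interval in the 6 comparisons that had replicates, red where the edgeR quasi-likelihood adjusted p was below 0.05. Dnmt3a, Tet2 and Tet3 at E18.5 are the red points; intervals for Tet3 and Zfp57 in PGCs are the widest.

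Whether the IVF effect itself changed was tested in the joint fits. Between E18.5 and 12-week ovaries no member passed, against 0.314% of genes, nor by DESeq2, although 3 had an unadjusted p below 0.05. The 12-week effect minus the E18.5 effect was 1.80 on the log2 scale for Dppa3 (SE 0.643, adjusted p = 0.203), 0.78 for Uhrf1 (SE 0.322, adjusted p = 0.274) and -0.52 for Tet3 (SE 0.221, adjusted p = 0.285). For Dnmt3a it was -0.28 (SE 0.199) and for Tet2 -0.32 (SE 0.318), so the higher level of these genes at E18.5 was not shown to be particular to that age. Between 12 and 39 weeks no member passed, against 2.71% of genes, and Dnmt1 alone had an unadjusted p below 0.05, with a difference of -0.42 (SE 0.195, adjusted p = 0.224). Between PGCs and 12-week oocytes no member passed, against 0.019% of genes, and between cumulus cells and oocytes none, against 0.00633%, with no unadjusted p below 0.05 and no DESeq2 call in either. Without Natural PGC pool 2, Tet3 passed in the PGC and oocyte comparison (adjusted p = 0.0040), since the other 3 Natural PGC pools held no Tet3 count.

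The 39-week oocytes, 9 Natural and 10 IVF cells of unnamed donors, allowed no test between conceptions, and each group counts as 1 sample. Counts were summed over the cells, and the intervals cover counting error only. Of the 10 members, 4 were past 1.5-fold, all higher in IVF, where 52.6% of the 12319 genes at 1 CPM or more were past 1.5-fold in either direction. The share of all genes higher in IVF was not counted, so the shared direction of these 4 has no comparison. Dnmt1 was at 269 CPM in Natural (Poisson 95% interval 266 to 272) and 592 in IVF oocytes (588 to 595), a ratio of 2.20. Dnmt3b was at 19.11 (18.3 to 20.0) and 59.1 (58.0 to 60.2), a ratio of 3.09, Tet1 at 1.63 (1.40 to 1.89) and 3.25 (2.99 to 3.52), a ratio of 1.99, and Tet2 at 4.26 (3.88 to 4.67) and 7.25 (6.86 to 7.66), a ratio of 1.70. The Tet2 ratio rested on the deepest cell, IVF 8, which held Tet2 at 16.4 CPM against 0 to 7.60 in the other IVF cells. Without it, a choice made after the data were seen, the Tet2 ratio was 1.078, and with the mean of the cells' CPM in place of the sum it was 1.33. Leaving out each of the 19 cells in turn kept Dnmt1 (1.88 to 2.56), Dnmt3b (2.33 to 3.38) and Tet1 (1.65 to 3.19, the highest without Natural 4) past 1.5-fold. The share of members past 1.5-fold, 4 of 10, was not above that of all genes. Dppa3 was at 3650.2 and 3085 CPM, a ratio of 0.845, Tet3 at 657 and 588 (0.896), Uhrf1 at 730.3 and 855 (1.17) and Zfp57 at 809.6 and 658 (0.813). Dnmt3a had a ratio of 1.15 and Dnmt3l one of 0.884.

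The Dnmt1 and Dnmt3b ratios rested in part on a pair of Natural cells. Oocytes Natural 6 and Natural 9 had oocyte marker sums of 2755 and 4710.2 CPM, where the other 39-week oocytes had 19938 to 54438, and they held Dnmt1 at 8.16 and 32.4 CPM and Dnmt3b at 2.86 and 0.0741 CPM. Over the other 7 Natural oocytes, Dnmt1 ran from 203 to 563 CPM with a median over all 9 of 314, and over the 10 IVF oocytes from 262 to 1182 with a median of 622. Leaving the 2 cells out, a choice made after the data were seen, gave a ratio of 1.63 for Dnmt1, 2.26 for Dnmt3b, 1.43 for Tet1 and 1.79 for Tet2, so that 3 members were past 1.5-fold. The Dppa3 level of these 2 cells, 3629.7 and 3087 CPM, was near the Natural median, unlike Dnmt1.

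**Figure D5:**
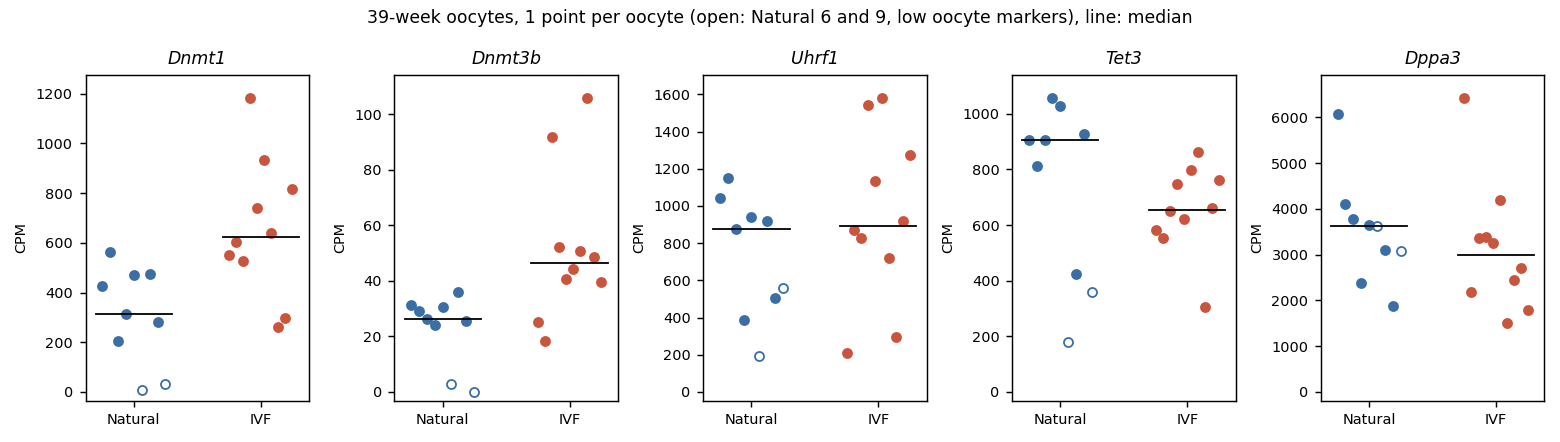
CPM of Dnmt1, Dnmt3b, Uhrf1, Tet3 and Dppa3 in single 39-week oocytes, 1 point per oocyte (9 Natural in blue, 10 IVF in red) with a line at the median. Open circles are Natural 6 and 9, the cells of low oocyte marker sums, which lie at the bottom for Dnmt1 and Dnmt3b but not for Dppa3.

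The wider pathway was described by 6 lists holding 81 genes. At E18.5, 78 were tested and 6 rose and 1 fell in IVF ovaries, against the 5.43% of all genes called; the 6 with the smallest p are named. The methionine synthase Mtr, which feeds the methyl donor, ran from 30.2 to 44.3 CPM in Natural and 61.7 to 74.6 CPM in IVF ovaries, higher by 0.82 on the log2 scale (SE 0.123, adjusted p = 0.012). The H3K4 methyltransferases Kmt2d (0.71, SE 0.115) and Kmt2b (0.49, SE 0.0858), the imprint guard Zfp445 (0.61, SE 0.118) and the germline gene Taf7l (1.17, SE 0.225) were also higher. Gadd45b, a stress gene tied to demethylation and repair, ran from 20.3 to 22.6 CPM in Natural and 11.0 to 15.4 CPM in IVF ovaries, with a log2 difference of -0.76 (SE 0.140, adjusted p = 0.014). The ranges of these 6 genes did not overlap between the groups. Because the genes were chosen by smallest p in this same comparison, that adds nothing to their calls. Among all genes tested, 4.28% had every IVF value above every Natural value. By list, 2 of 11 imprint guards, 2 of 10 histone mark genes, 1 of 13 methyl donor genes and 1 of 15 germline genes rose, 1 of 15 demethylation and repair genes fell, and none of the 15 methyl-CpG readers and partners was called. The median log2 difference was 0.28 over the germline genes, 0.21 over histone mark genes, 0.13 over readers, 0.12 over methyl donor genes, 0.04 over imprint guards and -0.10 over repair genes, beside 0.00021 over all genes.

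At the other stages few genes were called in the lists, as in the whole tables. In 39-week ovaries 1 of 74 genes was called, against 0.262% of all genes, Shmt2, the mitochondrial serine hydroxymethyltransferase, at 52.8 to 63.9 CPM in Natural and 78.8 to 94.2 CPM in IVF ovaries, higher by 0.53 (SE 0.0855, adjusted p = 0.041). None of 73 genes was called in PGCs, against 0% of all genes, of 76 in 12-week ovaries, against 0.00567%, of 72 in 12-week oocytes, against 0.0277%, or of 56 in cumulus cells, against 0.00973%. The list medians in these tables lay between -0.17 and 0.21.

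Over the means of the 14 groups, the genes whose level followed a member most closely were looked up among 19458 genes. The groups differed in library kit and depth, and CPM was scaled within each table, so the correlations are a description only. For Dnmt3l they were Gm31834 (Pearson r = 0.993), Gm32970 (0.993) and E330011O21Rik (0.991). For Dppa3 they were Syce2 (0.992), a protein of the synaptonemal complex, Cenph (0.991), a centromere protein, and Xlr3a (0.991). For Uhrf1 they were Pramef12 (0.988), Nfrkb (0.988) and Pard6b (0.987). Among the members themselves, Uhrf1 and Dnmt3b were the closest pair (r = 0.968), followed by Uhrf1 and Zfp57 (0.929) and Tet3 and Zfp57 (0.920), while Tet2 ran against Dnmt3l (r = -0.777).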

How the data were processed

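RNA-seq counts per gene were deposited by the authors as 7 tables, 1 per tissue and stage, and all 143 columns were mapped to samples by their names. Per the submitters' processing notes, reads were processed with Trimmomatic 0.32, STAR 2.3.0e and featureCounts 1.5.0 for the mm10 build, with DESeq2 (version not given in the sources used here). Counts were whole numbers, and 56.5% to 73.2% of the nonzero values in a table were even, which bears on how read pairs were counted and was not tested. Per the labels, ovaries were prepared with a stranded mRNA kit and the low-input samples with a SMART-seq protocol, so the 2 kinds were not tested against each other. The 4 samples of 39-week cumulus cells were not analysed here. No replicates of a group held identical values or agreed within sampling noise (lowest chi-square 6.24 per gene).

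Comparisons used edgeR 4.0.16 (limma 3.58.1, R 4.3.3): TMM scaling, filterByExpr by group, glmQLFit and glmQLFTest, with Benjamini-Hochberg adjustment over all genes tested and a call at an adjusted p below 0.05. IVF and Natural were compared within each table. Cumulus libraries came in 2 naming sets, which entered as a covariate in the comparison of IVF with Natural but not in the joint fit. The joint fit also took cumulus pools and oocyte sets of the same name as independent. Counts of 12-week oocytes were summed per set of library names. Stage comparisons and differences of the IVF effect came from 1 fit over the 6 ovary groups and 1 over the 6 groups of PGCs, 12-week oocyte sets and cumulus cells. The 39-week oocytes were summed per group, since no donor was named, and genes at 1 CPM or more in either sum were compared without a test. Fits were tested on simulated data. DESeq2 1.42.0, its size factors, no filter on low counts, library totals, the replicate block and leaving out each sample in turn were the alternatives. Library totals, the 3 fits without low-marker or doubtful libraries and leaving out single 39-week oocytes were added after the data were seen. Floors were set at 3 counts, and Poisson intervals at 95% cover counting error only.

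The 10 members, the 6 pathway lists and the marker lists were chosen with earlier results of these data known. The genes named were all members, up to 6 called pathway genes per comparison by smallest p, and for Dnmt3l, Dppa3 and Uhrf1 the 3 genes of highest Pearson correlation of mean log2(CPM + 1) over 14 groups. The list gene Nsd2 was not found under that name. Promoters were taken from RefSeq for GRCm38.p6 and exon lengths from GENCODE M21. Figures were drawn with matplotlib 3.10.9 in Python 3.11.15.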

Additional observations from a re-analysis of the deposited data

Results flagged for a closer look

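In groups of 4 to 10 samples, 138 sets of values of a member in a group were searched for a single sample far from the others by Dixon's criterion. For normally distributed values, chance alone puts about 1 in 20 sets past it, and 10 of 138 were past it. That rate does not hold for CPM values with many zeros. A set with a single nonzero value is always past it, as for Tet3 in Natural PGCs and Dnmt3l in IVF cumulus pools.

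In E13.5 PGCs, Natural pool 2 held Tet3 at 13.6 CPM, where the other 3 Natural pools were at 0, and Zfp57 at 13.0 CPM, where the others were at 0 to 1.48. In ovaries, Natural 39-week ovary 1 held Dnmt3a at 91.3 CPM, below the 135 to 152 of the other 4, and IVF E18.5 ovary 2 held Dnmt3l at 0.788 CPM, above the 0 to 0.1002 of the other 5. In cumulus pools, IVF 2 held Dnmt3b at 5.74 CPM (others 0.974 to 2.13) and the only IVF count of Dnmt3l, at 0.212 CPM. Natural cumulus pool 1 held Dppa3 at 6.28 CPM (others 0.391 to 1.24) and Natural cumulus pool 5 held Zfp57 at 2.89 CPM (others 0.483 to 1.17). Among 39-week oocytes, Natural 4 held Tet1 at 10.2 CPM (others 0 to 3.31) and IVF 8 held Tet2 at 16.4 CPM (others 0 to 7.60).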

How the results depend on the processing

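The counts of called members were recomputed under 71 alternatives other than leaving out 1 sample, and 67 stayed within 1.5 times. The exceptions were E18.5 ovaries, with 3 members called, which fell to 0 with the replicate block and to 0 when IVF 2 and IVF 4 were left out together (a choice made after seeing the data), and Natural ovaries at 39 against 12 weeks, with 2 called, which fell to 1 with no filter on low counts and to 0 with library totals in place of TMM (added after seeing the data). Leaving out 1 sample at a time gave 0 to 5 called members at E18.5, 0 to 3 at 39 against 12 weeks, 8 to 10 at 12 weeks against E18.5 and 0 to 1 for the difference between PGCs and oocytes, and moved none of the other counts. The cause of these moves was not tested. Fewer samples entered the fits that left samples out, while the replicate block, no filter and library totals used every sample. No direction was reversed for a called value.

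With the replicate block, 0 members were called at E18.5, 12 weeks, 39 weeks and in PGCs. At E18.5 the adjusted p was then 0.216 for Dnmt3a and 0.190 for Tet2 and Tet3. Samples of the same number did not deviate together throughout: their deviations correlated at -0.164 to 0.0146 at E18.5 (0 of 4 pairs over 0.1), -0.428 to 0.285 at 12 weeks (2 of 4), 0.0233 to 0.396 at 39 weeks (3 of 5) and -0.0869 to 0.585 in PGCs (3 of 4), so the numbers were not taken as pairs, although most pairs in PGCs and 39-week ovaries were over 0.1. In cumulus cells the counts of 5 members were too few to test, and depth and low expression were not told apart there.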
